A study of Rattus norvegicus with 12 samples.

Results

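Cdh1, Cdh2, Vim and Fn1 are genes whose transcripts are widely read as markers of the epithelial or the mesenchymal state, and they are described here in OC1 cells given siRNA against Bcl-2. They were chosen by their Ensembl gene IDs, ENSRNOG00000020151 for Cdh1, ENSRNOG00000015602 for Cdh2, ENSRNOG00000018087 for Vim and ENSRNOG00000014288 for Fn1. All 4 were found among the 23978 IDs of the deposited table, and 3 of them passed the filter on low counts, with Cdh1 left out. The table carries IDs without symbols, so these names came with the list of IDs.

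OC1 is a cultured line whose labels give rat as the organism and cochlear sensory epithelial cells as the cell type. HEI-OC1, an auditory line with a similar name, comes from mouse, and the sources used here do not say whether the lines are the same. What reads of another species would do to these counts was not tested. The cells were transfected, with a lipid reagent per the protocol, with siRNA 1423 or siRNA 1928, which both target Bcl-2, or with a control siRNA, and each group had 4 libraries lettered A to D. The labels call the cells of both Bcl-2 siRNAs knockdown cells and the control cells WT, and they tag all 3 groups as plasmid transfected although the protocol describes siRNA. No time after transfection is given, and the level of Bcl-2 mRNA was not analysed here. Nothing states that the letters mark separate cultures, so each p-value measures the spread between these libraries, which may be technical.

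Cadherins hold neighbouring cells together: the part outside the cell binds the same cadherin on the next cell, and the tail inside binds catenins that connect it to actin. Cdh1 encodes E-cadherin, the cadherin of most epithelia, the sensory epithelium of the cochlea among them, while Cdh2 encodes N-cadherin of neural and mesenchymal cells, which some cochlear cells also carry. Vim encodes vimentin, the intermediate filament protein of mesenchymal cells and of many cultured lines. Fn1 encodes fibronectin, a matrix glycoprotein bound by integrins at the cell surface. A loss of Cdh1 with a gain of Cdh2, Vim and Fn1 is the classical signature of epithelial-mesenchymal transition, and many adherent lines show part of it in culture.

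Vim was one of the members with the clearest difference between the siRNAs, and it was the 1 member with an entry in the promoter table used. The 250 bases before its start, on the plus strand at chr17:81577011-81577260 of the rat assembly GRCr8, are shown here from RefSeq. Capitals mark the TATA box letters TATAAA and 1 GGGCGG motif, here on the opposite strand. The first base of TATAAA lies 82 bases before the annotated start, and whether these letters act as a TATA box was not tested.
Vim promoter: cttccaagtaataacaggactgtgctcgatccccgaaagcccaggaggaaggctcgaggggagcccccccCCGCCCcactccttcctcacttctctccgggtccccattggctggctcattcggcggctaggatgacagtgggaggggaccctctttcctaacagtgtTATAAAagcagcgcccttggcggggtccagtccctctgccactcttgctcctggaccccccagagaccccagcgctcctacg
TATAAA, searched on both strands, was in 12.9% of 33469 windows of the same length, and GGGCGG was in 30.5%. The E-box letters CANNTG, which zinc finger and helix-loop-helix factors of epithelial-mesenchymal transition bind, were in 65.5% of the windows and had 0 matches in this one, which says only that these letters are not in it.

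Library totals ran from 15671546 to 23247593 expected counts, which are estimated read counts. Values below are counts per 1000000 counts (CPM), scaled by trimmed means of M values (TMM), and tests are edgeR's quasi-likelihood test over 12731 genes with Benjamini-Hochberg adjustment, a gene being called changed at an adjusted p under 0.05. With library size alone, 64.4% of the genes called with siRNA 1928 against control were higher, against 48.3% with TMM, and the median log2 fold change of all genes was 0.06 in place of 0.0034. Replicates A and B differed from C and D across all groups in 1115 genes (8.76% of those tested), so values within each of these pairs of letters are given as well. What sets the pairs of letters apart is not in the labels.

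Cdh1 was close to the limit of detection in every library, whichever siRNA the cells had received. Its expected counts in libraries A to D were 0, 2, 0 and 0 with siRNA 1423, 0, 0, 2 and 1 with siRNA 1928, and 2, 2, 3 and 0 in control cells. The counts overlapped between all 3 groups, and no library passed 3 counts. A value of 3 is also about the 95% upper bound on the mean count behind an observed 0. That limit corresponds to 0.129 to 0.186 CPM in these libraries, and it covers counting error only. Over all 12 libraries Cdh1 summed to 12 counts, and 37.4% of the IDs in the table summed to no more than that, 5685 of them to 0. No fold change is given for Cdh1, because it did not pass the filter on low counts. The bound for an observed 0 is also as high as its highest count of 3. The defining epithelial cadherin was thus at or near 0 in a line labelled as epithelial, and a difference between the siRNAs was not detectable at this depth. Other epithelial, hair cell and supporting cell markers were not analysed here, because their IDs could not be paired with symbols.

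**Figure D1:**
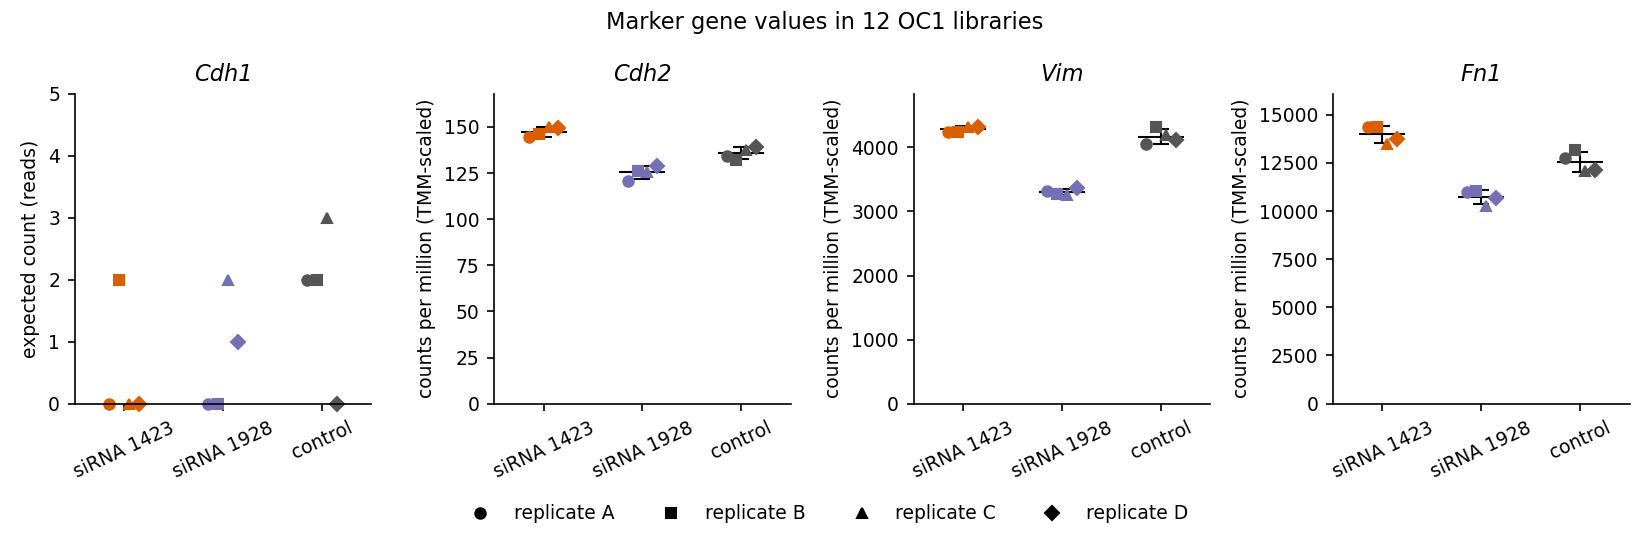
Each point is a library, its shape giving the replicate letter, for cells given siRNA 1423, siRNA 1928 or control siRNA; Cdh1 is in expected counts, and Cdh2, Vim and Fn1 are in TMM-scaled CPM, with the horizontal mark the mean and the bar the SD (n = 4). Cdh1 stays at 0 to 3 counts throughout, and the 4 libraries of siRNA 1928 lie below all the others for Cdh2, Vim and Fn1.

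Of the mesenchymal markers, Fn1 and Vim stood at the other end of the table, and Cdh2 ranked well below them. Fn1 had the largest sum of reads of any ID, and took 1.38 ± 0.0478% of all expected counts with siRNA 1423, 1.10 ± 0.0412% with siRNA 1928 and 1.24 ± 0.0525% in control cells (SD, n = 4 each). Vim ranked number 8 in summed reads, with 0.421 ± 0.00337% of the counts with siRNA 1423, 0.340 ± 0.00508% with siRNA 1928 and 0.412 ± 0.0100% in control cells (SD, n = 4 each). Cdh2 was at 1664 in that ranking. These are shares of reads and not levels per transcript length, since lengths were not used here, so the ranking is not one of molecules. Cdh2 nonetheless gathered 2040 to 3255 expected counts in each library where Cdh1 gathered 0 to 3. In bulk RNA of this kind, fewer cells that carry a transcript and less of it per cell cannot be told apart.

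With siRNA 1423, Cdh2 and Fn1 were slightly higher than in control cells, and Vim did not pass the test. Of the 3 members tested, 2 were called, both higher. Of all genes, 22.8% were called in either direction in this comparison, and 11.3% were called higher. Among the 3183 most abundant genes, those at 78.6 CPM or more, which hold all 3 members, 36.5% were called in either direction. Fn1 rose by 11.5% (95% confidence interval 6.73 to 16.6%), and Cdh2 rose by 8.73% (3.94 to 13.7%). The estimate for Vim was 2.67%, with an interval of -0.837 to 6.30%.

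With siRNA 1928 all 3 tested members were called lower than in control cells. Of all genes, 45.2% were called in either direction in this comparison, and 23.3% were called lower. Of the 3183 most abundant, 60.7% were called in either direction. Vim fell furthest, to 0.793 times the control level, Fn1 fell to 0.856 times and Cdh2 to 0.923 times, the call for Cdh2 being lost with library size alone. The comparisons of each siRNA with control use the same 4 control libraries, so they are not independent of each other. The direct comparison of siRNA 1928 with siRNA 1423 does not use the control means, but it reuses the siRNA 1928 libraries. Its filter, scaling and spread came from the fit of all 12 libraries. All 3 members were called lower in it, and also with only the 2 groups compared in the fit. Of all genes, 44.3% were called in the direct comparison over 12 libraries in either direction, and 23% were called lower. Of the 3183 most abundant, 58.3% were called in either direction. None of these differences reached 2-fold. The median log2 fold change of the 3 members was 0.12 with siRNA 1423 against control, -0.22 with siRNA 1928 against control and -0.37 between siRNA 1928 and siRNA 1423. Over all genes tested the medians were -0.0012, 0.0034 and 0.0036 in those comparisons.

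**Figure D2:**
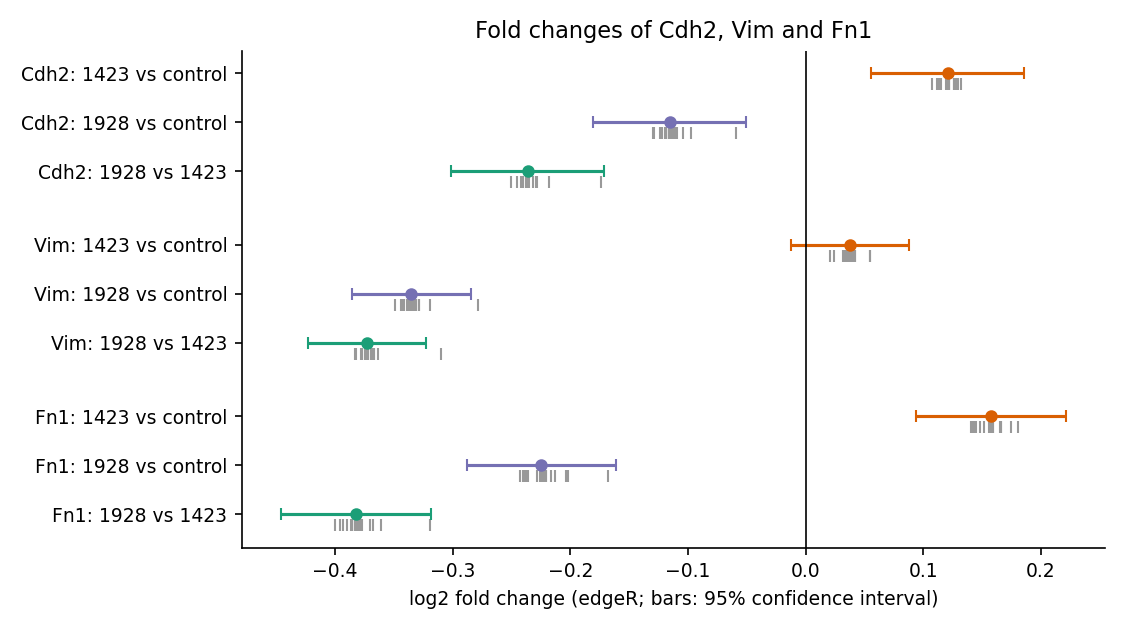
Points are log2 fold changes (horizontal axis) of Cdh2, Vim and Fn1 in each comparison, bars are 95% confidence intervals from edgeR, and grey ticks under them are the estimates under other processing settings. The intervals for siRNA 1423 against control lie above 0 for Cdh2 and Fn1 and cross it for Vim, and every interval involving siRNA 1928 lies below 0.

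Cdh2, the N-cadherin gene, had 144, 146, 150 and 149 CPM in siRNA 1423 libraries A to D, 121, 126, 125 and 129 CPM in those of siRNA 1928, and 134, 132, 138 and 139 CPM in control cells. The order was siRNA 1423, control, siRNA 1928, and no group overlapped another. Separation of this kind was seen in 23.7% of all tested genes for siRNA 1423 against control, in 39.4% for siRNA 1928 against control and in 39.9% between the siRNAs. The log2 fold change was 0.12 with siRNA 1423 against control (SE 0.0313, edgeR adjusted p = 0.00716) and -0.12 with siRNA 1928 against control (SE 0.0314, edgeR adjusted p = 0.00457). Between siRNA 1928 and siRNA 1423 it was -0.24 (SE 0.0314, edgeR adjusted p = 2.23e-06).

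The decrease of Cdh2 with siRNA 1928 depended on the scaling. With library size alone, Cdh2 was at 124 to 132 CPM with siRNA 1928 and 130 to 137 CPM in control cells, so the groups overlapped, and the log2 fold change of -0.06 was no longer called (edgeR adjusted p = 0.116). Within replicates A and B alone, neither comparison with control passed the test for Cdh2, at log2 fold changes of 0.13 for siRNA 1423 (edgeR adjusted p = 0.0663) and -0.11 for siRNA 1928 (edgeR adjusted p = 0.0590). Within C and D alone both passed, at 0.11 (edgeR adjusted p = 0.0376) and -0.12 (edgeR adjusted p = 0.0126). The difference between the siRNAs was -0.24 in both pairs of letters and was called in each (edgeR adjusted p = 0.000217 and 1.03e-05).

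Vim, the vimentin gene, had 4239, 4246, 4319 and 4323 CPM in siRNA 1423 libraries A to D, 3317, 3280, 3260 and 3368 CPM in those of siRNA 1928, and 4051, 4314, 4194 and 4122 CPM in control cells. The libraries of siRNA 1928 were all below the others, while those of siRNA 1423 overlapped the control libraries through control replicate B. Of all tested genes, 39.4% did not overlap for siRNA 1928 against control and 39.9% between the siRNAs. Against control, the log2 fold change was -0.34 with siRNA 1928 (SE 0.0242, edgeR adjusted p = 1.66e-10) and 0.04 with siRNA 1423 (SE 0.0241, edgeR adjusted p = 0.282). Of the 3183 most abundant genes, 10.2% had a larger absolute change with siRNA 1928 than Vim. Between siRNA 1928 and siRNA 1423 the log2 difference was -0.37 (SE 0.0242, edgeR adjusted p = 3.18e-11). Vim gave log2 fold changes of -0.34 in replicates A and B and -0.33 in C and D for siRNA 1928 against control, and 0.02 and 0.05 for siRNA 1423 against control.

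Fn1, the fibronectin gene, had 14376, 14354, 13478 and 13735 CPM in siRNA 1423 libraries A to D, 10969, 11027, 10245 and 10684 CPM in those of siRNA 1928, and 12773, 13144, 12094 and 12147 CPM in control cells. As for Cdh2, the order was siRNA 1423, control, siRNA 1928, with no overlap between groups. Of all tested genes, 23.7% did not overlap for siRNA 1423 against control, 39.4% for siRNA 1928 against control and 39.9% between the siRNAs. Fn1 rose by 0.16 on the log2 scale with siRNA 1423 against control (SE 0.0306, edgeR adjusted p = 0.00063) and fell by 0.22 with siRNA 1928 against control (SE 0.0306, edgeR adjusted p = 2.99e-06). Between siRNA 1928 and siRNA 1423 the log2 difference was -0.38 (SE 0.0306, edgeR adjusted p = 1.01e-09), and 7.85% of the 3183 most abundant genes differed by more. With library size alone the comparisons against control kept their direction and their calls, at 0.15 and -0.17. Gene-level counts do not separate the splice forms of Fn1 that carry the extra domains of cellular fibronectin.

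**Figure D3:**
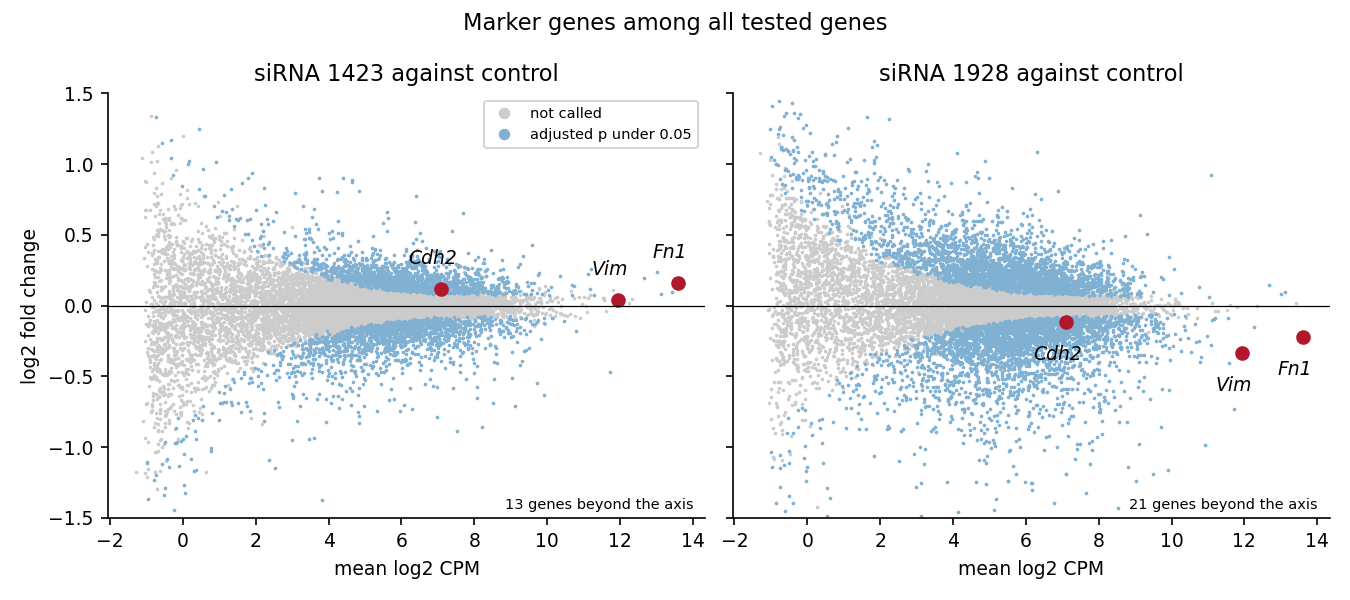
Each dot is a tested gene, with mean log2 CPM across the page and log2 fold change against control up the page, for siRNA 1423 on the left and siRNA 1928 on the right; blue dots have an adjusted p under 0.05 and the red ones are the members. Vim and Fn1 lie at the far right among the most abundant genes, below 0 with siRNA 1928, and each change is small beside the range of scarcer genes.

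Fn1 was also the member that differed between the pairs of letters. In each of the 3 groups its replicates A and B were both above C and D, and the log2 difference of A and B over C and D was 0.08 with group as a term (SE 0.0139, edgeR adjusted p = 0.000264). For Cdh2 that difference was -0.05 (edgeR adjusted p = 0.197) and for Vim it was -0.0083 (edgeR adjusted p = 0.814), neither called. Fn1 moved in the same direction in both pairs of letters: the log2 fold change with siRNA 1423 was 0.15 in A and B and 0.17 in C and D, and with siRNA 1928 it was -0.24 and -0.21, each of them called.

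**Figure D4:**
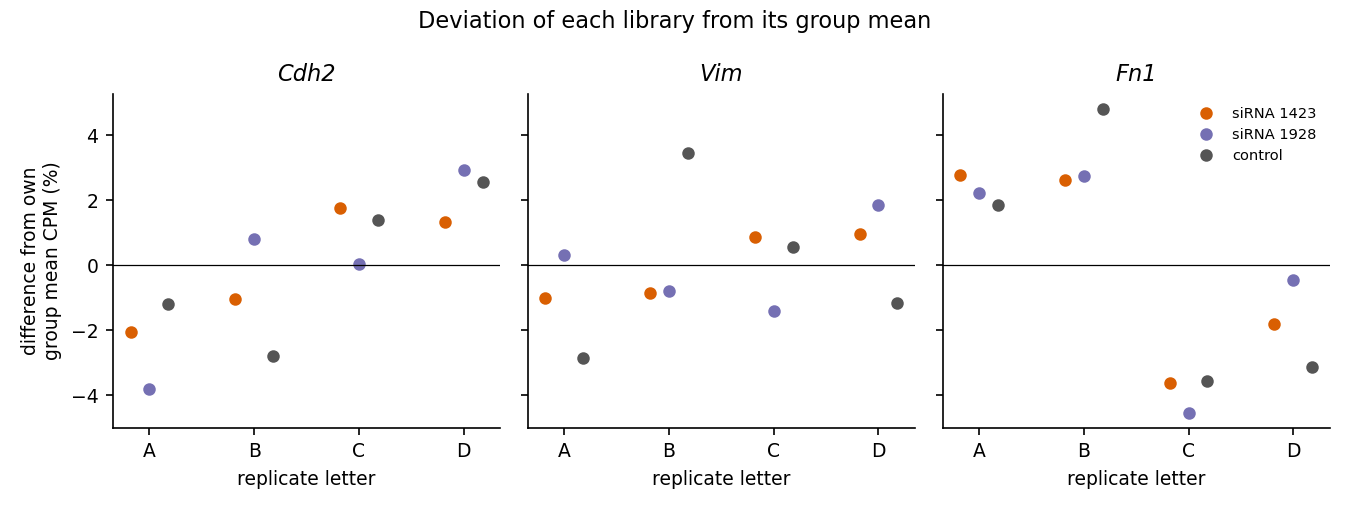
Points give the difference of each library from the mean CPM of its own group, in percent, by replicate letter for Cdh2, Vim and Fn1, with colour for the group. For Fn1, letters A and B lie above 0 and C and D below it in all 3 groups. For Cdh2, A and B lie below C and D with siRNA 1423 and in control cells, but not with siRNA 1928. For Vim no such division is seen across groups.

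Ratios of reads within a library do not depend on the scaling between libraries, and they were computed, after the values had been seen, as a description with no test. There were 34.1 to 34.8 Cdh2 reads per 1000 Vim reads with siRNA 1423, 36.4 to 38.5 with siRNA 1928 and 30.6 to 33.8 in control cells. The groups did not overlap, with siRNA 1928 highest and control cells lowest. For Vim reads per 100 Fn1 reads the ranges were 29.5 to 32.04 with siRNA 1423, 29.7 to 31.8 with siRNA 1928 and 31.7 to 34.7 in control cells. The means were 30.6 ± 1.31 with siRNA 1423, 30.8 ± 1.00 with siRNA 1928 and 33.3 ± 1.30 in control cells (SD, n = 4 each), and in every group A and B were below C and D. Control replicate A, the lowest control at 31.7, lay inside both of the other ranges, whose upper ends were libraries of C and D. Within each pair of letters the control libraries were highest. In A and B they had 31.7 and 32.8, against 29.5 to 30.2 with the Bcl-2 siRNAs. In C and D they had 34.7 and 33.9, against 31.5 to 32.04. Cdh2 reads per 1000 Fn1 reads overlapped between all groups over the 4 letters, at 10.0 to 11.1 with siRNA 1423, 10.99 to 12.2 with siRNA 1928 and 10.0 to 11.5 in control cells. Within each pair of letters, siRNA 1928 was highest. In A and B it had 10.99 and 11.5, against 10.0 to 10.5 in the other libraries. In C and D it had 12.2 and 12.1, against 10.9 to 11.5.

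**Figure D5:**
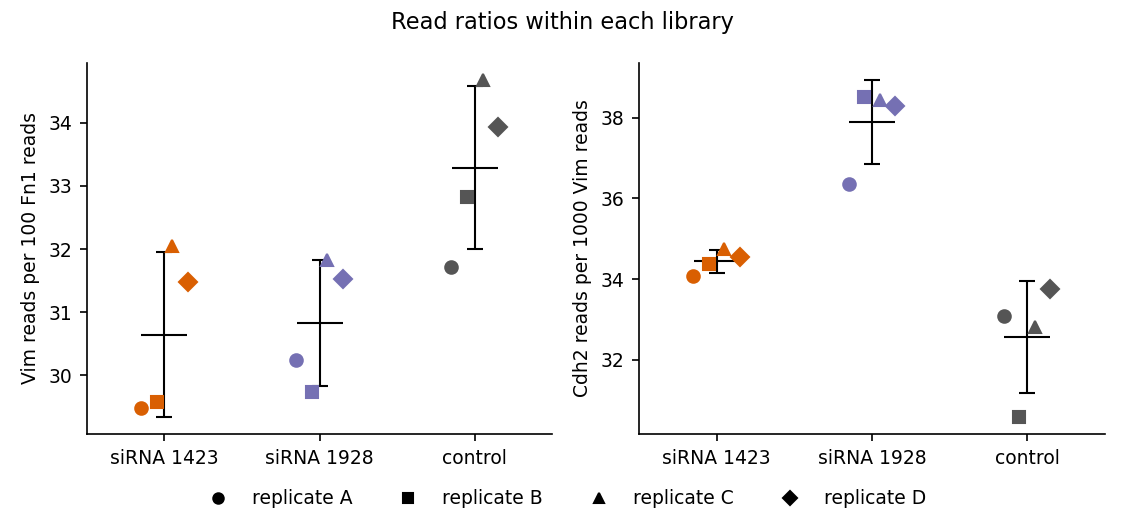
Points are libraries, with shapes for the replicate letter, horizontal marks for the mean and bars for the SD (n = 4), for Vim reads per 100 Fn1 reads on the left and Cdh2 reads per 1000 Vim reads on the right; the axes do not start at 0. The Cdh2 to Vim ratio is highest with siRNA 1928, and the Vim to Fn1 ratio is lower on average with each Bcl-2 siRNA than in control cells.

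Across the 12 libraries, which fall into 3 groups, Pearson's r of log2 CPM was 0.906 between Vim and Fn1, 0.855 between Cdh2 and Vim and 0.856 between Cdh2 and Fn1. Many genes followed patterns like these, since among 10497 other genes averaging at least 5 CPM r was over 0.9 with Vim for 760, with Fn1 for 334 and with Cdh2 for 167. Those closest to Vim were ENSRNOG00000020918 (r = 0.995) and ENSRNOG00000016592 (r = 0.994), for which no symbol was available. ENSRNOG00000020918 averaged 157 ± 2.29 CPM with siRNA 1423, 80.1 ± 3.87 CPM with siRNA 1928 and 144 ± 6.67 CPM in control cells (SD, n = 4 each). ENSRNOG00000016592 averaged 705 ± 18.8 CPM with siRNA 1423, 433 ± 9.61 CPM with siRNA 1928 and 657 ± 19.8 CPM in control cells (SD, n = 4 each). The highest r with another gene was 0.982 for both Cdh2 and Fn1. These coefficients take in the differences between the 3 groups and are given as descriptions.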

How the data were processed

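Strand-specific poly(A) RNA-seq libraries were made from 12 OC1 samples, per the labels' protocols. The deposited values are expected counts per Ensembl gene ID, a unit read from the values (71.3% whole to within 1e-06), and 0 columns belonged to other samples. The submitters' processing notes name the build mRatBN7.2 and the tools DESeq2 1.24.0, fastp 0.21.0 and bcl2fastq 2.20. An aligner, a counting program and the handling of strand and of shared reads were not given in the sources used here.

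Expected counts were rounded, filtered with filterByExpr (minimum count 10, minimum total 15), scaled by TMM and fitted with edgeR 4.0.16 (R 4.3.3, limma 3.58.1) in 1 model of 3 group means over 12 libraries. The 12731 genes kept held 99.95% of the counts. P-values were adjusted over all of them. SEs and intervals were derived from the F statistic. The fit was tested on simulated counts. All 18 pairs of libraries within groups differed beyond sampling noise (mean chi-square 1.93 to 5.89), and each library was counted as 1 sample. That difference does not show that the libraries came from separate cultures.

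The members and lists were chosen with earlier results of these data known. Named were the 4 members and, by rule, the genes most like them by Pearson's r. Of the gene IDs, 0 matched the reference table of assembly GRCr8, so 13 gene lists were not used. Alternatives covered scaling, filters, DESeq2 1.42.0, limma voom, a replicate block, subsets of letters and leaving out each library. Figures were drawn with matplotlib 3.10.9.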

Additional observations from a re-analysis of the deposited data

Results flagged for a closer look

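The responses to the siRNAs differed for all 3 tested members, by the direct test of siRNA 1928 against siRNA 1423 in edgeR. The log2 difference was -0.24 for Cdh2, -0.37 for Vim and -0.38 for Fn1, and in each case all 4 libraries of siRNA 1928 lay below all 4 of siRNA 1423. Of all tested genes 44.3% were called in either direction in this comparison, 23% were called lower, and 39.9% did not overlap. Of the 3183 most abundant genes, which hold all 3 members, 58.3% were called in either direction. For Cdh2 and Fn1 the changes against control ran in opposite directions, 0.12 and 0.16 with siRNA 1423 and -0.12 and -0.22 with siRNA 1928. For Cdh2 the decrease was -0.059 and not called with library size alone (edgeR adjusted p = 0.116), where its groups overlapped. With replicates A and B alone neither change of Cdh2 against control was called (edgeR adjusted p = 0.0663 for siRNA 1423 and 0.0590 for siRNA 1928). The level of Bcl-2 mRNA under each siRNA was not analysed here, and its part in these differences was not tested. A search of 9 sets of 4 library values for a library far from the others of its group found 0.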

How the results depend on the processing

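Each log2 fold change of Cdh2, Vim and Fn1 was recomputed under 23 alternatives, and every one kept its direction. Calls were lost for Cdh2 alone. With library size alone its log2 fold change with siRNA 1928 against control was -0.059 (adjusted p over the alternatives 0.000882 to 0.116). With replicates A and B alone it was -0.11, and that with siRNA 1423 was 0.13 (adjusted p over the alternatives 0.00134 to 0.0663), where fewer samples were fitted. In the same subset 1535 genes were called for siRNA 1423 against control, in place of 2903. Leaving out any 1 library ended no call of these genes. The labels do not say whether the letters A to D pair the libraries. Deviations of same-lettered libraries correlated weakly, at 0.03 to 0.13, all positive and over 0.1 in 5 of 12 pairs. Between libraries with different letters the correlations ran from -0.17 to 0.16. By mean r over the other groups, 7 of 12 libraries correlated best with their own letter among the 4. These values do not settle whether the letters mark pairs. With the letter as a replicate block, 3365, 6174 and 6017 genes were called for siRNA 1423 against control, siRNA 1928 against control and siRNA 1928 against siRNA 1423, against 2903, 5752 and 5645 without it, and no call of Cdh2, Vim or Fn1 changed. Cdh1 could be tested only without a filter (edgeR adjusted p = 0.464, 0.491 and 0.890 in those comparisons). The log2 ratio of Cdh2 to Cdh1 had a median of 9.82 over libraries with a prior count of 2 and 11.3 with 0.5, so the prior count sets it. Counts of genes from the lists were not made. Depth limits Cdh1 most. For Cdh2 counting error alone gives a CV of 2.21% at its lowest count of 2040, in siRNA 1928 replicate B. It is smaller in the other libraries, which had more counts, 2407 to 3255 with siRNA 1423. CVs of Cdh2 between libraries were 1.84% with siRNA 1423, 2.80% with siRNA 1928 and 2.44% in control cells. For Vim and Fn1 counting error gives at most 0.435% and 0.237%.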
